A study of Mus musculus with 12 samples.

Results

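The genes that license replication origins were followed in mouse embryonic stem cells (ESCs) that make microRNAs and in cells that cannot. The members were the 10 listed genes Orc1, Cdc6, Cdt1, Gmnn, Mcm2, Mcm3, Mcm4, Mcm5, Mcm6 and Mcm10, taken by symbol from 51467 genes in the count table. All 10 were found, and all 10 passed the filter on low counts that left 14033 genes to test. Wild-type ESCs (the V6.5 line) and Dgcr8 KO ESCs, a knockout line generated earlier, were each a single line, and the labels give 3 replicates of each. All cells were grown in Knockout DMEM with fetal bovine serum, LIF and the inhibitors PD0325901 and CHIR99021, and all, wild-type included, received 500 uM 4-thiouridine (4sU) for 30 min. From each RNA sample a captured 4sU library measured nascent transcription and an rRNA-depleted library measured total RNA, which made 12 libraries in 4 groups. The labels give no age or further treatment, and do not say how the replicates were separated, so p-values measure only the spread between these samples of 1 line per genotype, which may be technical.

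Licensing is the loading of the replicative helicase onto DNA in G1. The origin recognition complex, of which Orc1 is the largest subunit, marks the origin. Cdc6 and Cdt1 then bring in the MCM ring, built from Mcm2 to Mcm7, as an inactive double ring. Geminin (Gmnn) binds Cdt1 after S phase starts and prevents a further round of loading, and Mcm10 acts later, when the loaded helicase is activated. Many of these genes are E2F targets transcribed around the G1 to S transition, and ESCs, which cycle fast with a short G1, are known for high levels of them. Dgcr8 is a subunit of the Microprocessor, which cuts primary microRNA transcripts, so cells without it lack canonical microRNAs.

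Among these are the families with the seed core AAGUGC, known from pluripotent cells, and some of their mature sequences are shown because the seeds define the sites searched for in the members. No small RNA was measured here. Sequences are from RefSeq (GRCm38.p6) and capitals mark bases 2 to 8, the seed. The first 5 share the seed AAGUGCU and the last 3 the seed AAAGUGC of the miR-17 family.
mmu-miR-291a-3p: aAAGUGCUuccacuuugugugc
mmu-miR-294-3p: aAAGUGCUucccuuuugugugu
mmu-miR-295-3p: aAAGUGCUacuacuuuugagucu
mmu-miR-302b-3p: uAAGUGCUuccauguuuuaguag
mmu-miR-302d-3p: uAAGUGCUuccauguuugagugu
mmu-miR-17-5p: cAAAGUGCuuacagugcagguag
mmu-miR-93-5p: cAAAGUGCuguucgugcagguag
mmu-miR-106b-5p: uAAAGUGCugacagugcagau

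The hexamer GCACTT, the complement of the shared AAGUGC, was present in the longest annotated 3′ UTR of 4 of the 10 members, against 34% of 11816 tested genes with a 3′ UTR. The 4 were Mcm3, Mcm6, Cdc6 and Cdt1. AGCACTT or GCACTTA, which extend it by a base, were found in Mcm6, Cdc6 and Cdt1 (21.4% of tested genes), and GCACTTT, the match of the miR-17 seed, in Mcm3 (14.9%). The other 6 members held none of these letters in that UTR. The sites are shown on the mRNA strand with the matched letters in capitals (GRCm38), and each lies in exonic 3′ UTR. The first Cdc6 site holds the hexamer alone. A match is a description of the sequence and not evidence of regulation.
Mcm3, chr1:20803157-20803182, minus strand: ccacccccagGCACTTTagtccagga
Mcm6, chr1:128332632-128332657, minus strand: atggtgacacGCACTTAaatcctagt
Cdc6, chr11:98921212-98921237, plus strand: cttactcatgGCACTTgcaggtgtcc
Cdc6, chr11:98921434-98921459, plus strand: tgtgatcccAGCACTTgggaaataga
Cdt1, chr8:122572684-122572709, plus strand: agtacacgacGCACTTAcgcctttaa

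Promoters were examined after the members were seen to move together, to describe their sequence. The RefSeq promoter table (GRCm38.p6), with 300 bases around each start, matched 8 members. Mcm4 and Gmnn had no entry. The E2F consensus, searched on both strands as TTTCCCGC, TTTCGCGC, TTTGCCGC and TTTGGCGC with overlapping matches counted, was present in 6 of the 8, against 4.98% of 9839 tested genes with an entry. Mcm2 and Mcm10 held no match in this window. The Cdt1 match began 32 bases, and the Mcm3 matches 19 and 38 bases, downstream of the start. The matches of the other genes lay upstream of it. The Cdc6 match, 138 bases upstream of that start, lies inside the longer span of the gene given below. With the members left out, 49.4% of 484 genes with the consensus were lower in Dgcr8 KO total RNA (limma adjusted p under 0.05). Among 9347 genes without it, 39.2% were. The median log2 changes of these sets were -0.21 with the consensus and -0.09 without it, and the sets were not matched for expression level. A match describes the sequence, and whether these sites had a part in the changes of the members was not tested. CCAAT, on either strand, was found in Mcm2, Mcm3, Mcm5, Mcm6, Mcm10 and Orc1, overlapping an E2F match in 0 of them, and in 43.5% of the tested genes. The matches are shown on the strand of the gene with the E2F letters in capitals, and where matches overlap or lie close, 1 window holds both.
Orc1, chr4:108579417-108579444: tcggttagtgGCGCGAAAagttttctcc
Cdc6, chr11:98908003-98908030: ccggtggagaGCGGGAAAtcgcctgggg
Cdt1, chr8:122568037-122568064: gaactaccttTTTGGCGCcatggcgcaa
Mcm3, chr1:20820266-20820294: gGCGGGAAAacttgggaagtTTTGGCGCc
Mcm5, chr8:75109347-75109376: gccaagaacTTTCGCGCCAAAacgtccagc
Mcm6, chr1:128359795-128359824: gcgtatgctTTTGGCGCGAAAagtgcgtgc
Mcm6, chr1:128359735-128359762: attggacgggTTTGGCGCgaagtagctc

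Counts of the members were deep enough for each comparison, from 324 to 9619 reads per gene and library in libraries of 4593914 to 9295245 reads. Dgcr8 itself was lower in the libraries labelled Dgcr8 KO, at 33.3 ± 1.09 against 102 ± 9.3 CPM in total RNA (SD, n = 3 each; CPM are counts scaled to library size with TMM factors). The 8 ESC markers examined were all among the tested genes, and their summed level was 4570 to 4789 CPM in wild-type and 4573 to 4710 CPM in Dgcr8 KO total libraries. In 4sU libraries the same sum was 4677 to 4830 CPM in wild-type and 5471 to 5942 CPM in Dgcr8 KO, a shift whose part in the results was not tested. The markers did not move together. In total RNA 3 of the 8 passed as higher (Sox2 0.32, Pou5f1 0.26, Zfp42 0.15), 4 as lower (Sall4 -0.46, Dppa5a -0.28, Nanog -0.18, Esrrb -0.17) and Tdgf1 did not pass. In nascent RNA 6 passed as higher, up to 0.69 for Tdgf1, and Sall4 (-0.22) and Dppa5a (-0.15) as lower. Of 8 fibroblast markers only Col5a1, and of 8 primitive endoderm markers only Gata4, passed the filter. The summed fibroblast level was 65.3 to 74.1 CPM in wild-type and 68.7 to 74.2 CPM in Dgcr8 KO total libraries, with Col3a1, Postn and Dcn at 0 in both. The endoderm sum was 8.9 to 11.2 and 8.24 to 9.67 CPM in total libraries, and 17 to 18.2 and 16.6 to 19 CPM in 4sU libraries. Gata4 alone was higher in the nascent RNA of Dgcr8 KO (0.52, limma adjusted p = 0.00585) and did not pass in total RNA (0.36, limma adjusted p = 0.0990), and its part in the results was not tested.

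In total RNA, all 10 licensing genes were lower in Dgcr8 KO, by log2 changes from -1.18 (Mcm5) to -0.43 (Gmnn), with a median of -0.85. Each passed the test (limma, Benjamini-Hochberg adjusted p under 0.05 over 14033 genes), where 36.7% of all genes passed as lower and the median of all genes was -0.09. For all 10, every Dgcr8 KO library lay below every wild-type library, which was the case for 39.6% of tested genes. Mcm4 and Mcm5 also passed the limit of the study on size, a log2 change over 1, as 7.82% of all genes did in that direction. In nascent RNA, all 10 again passed as lower, from -1.27 (Cdt1) to -0.43 (Gmnn), with a median of -0.84. Here 28% of all genes passed as lower, and the median of all genes was -0.02. All 10 had non-overlapping groups, against 29.4% of tested genes, and Mcm4, Mcm5, Cdc6 and Cdt1 passed the limit on size, against 5.27%. In these bulk libraries a smaller share of cells that express a gene and less RNA per cell cannot be told apart.

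**Figure D1:**
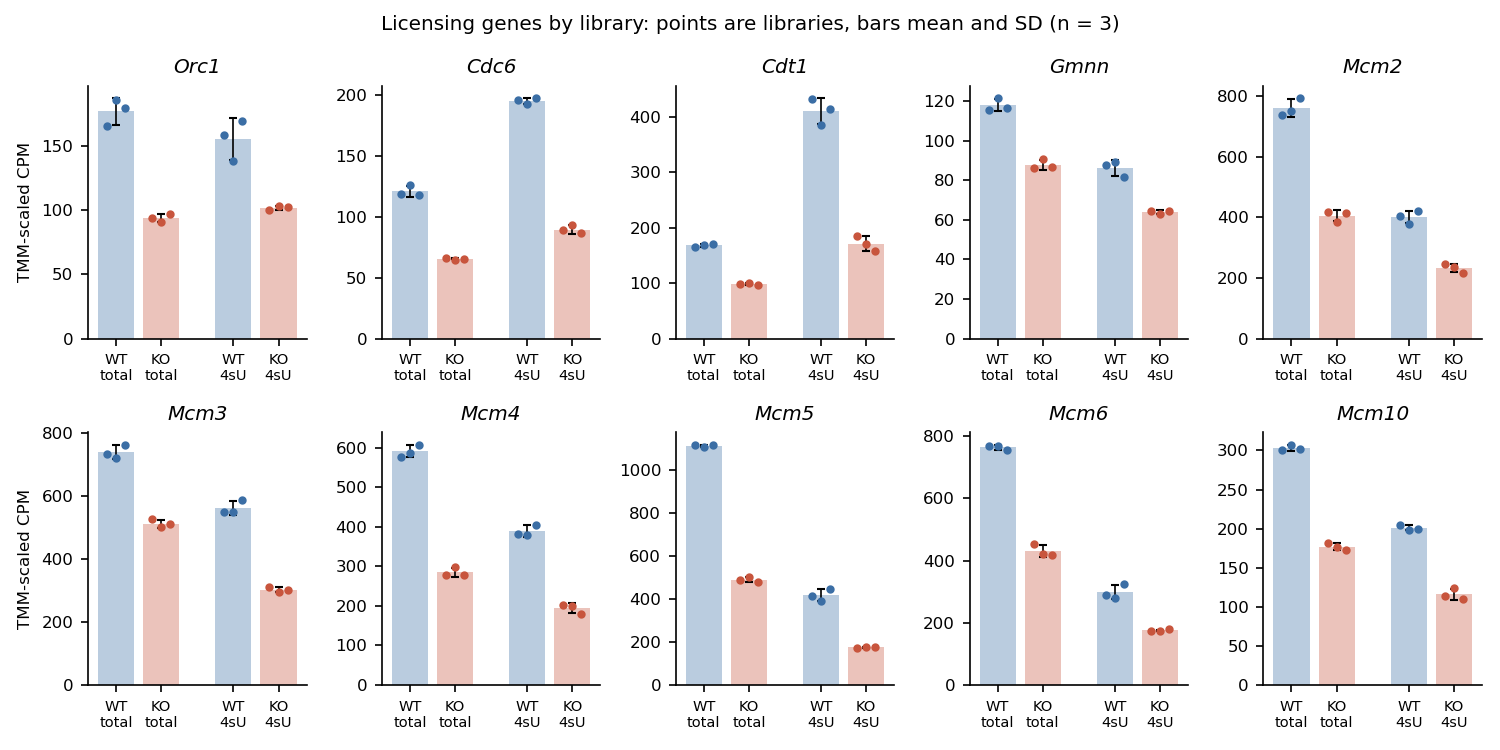
Level of each licensing gene (TMM-scaled CPM, linear axis from 0) in the 3 libraries of each group, as points, with the group mean as a bar and the SD as an error bar. In all 10 panels the Dgcr8 KO points lie below the wild-type points in both library types, and Cdc6 and Cdt1 are the panels in which wild-type 4sU bars stand above the wild-type total bars.

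**Figure D2:**
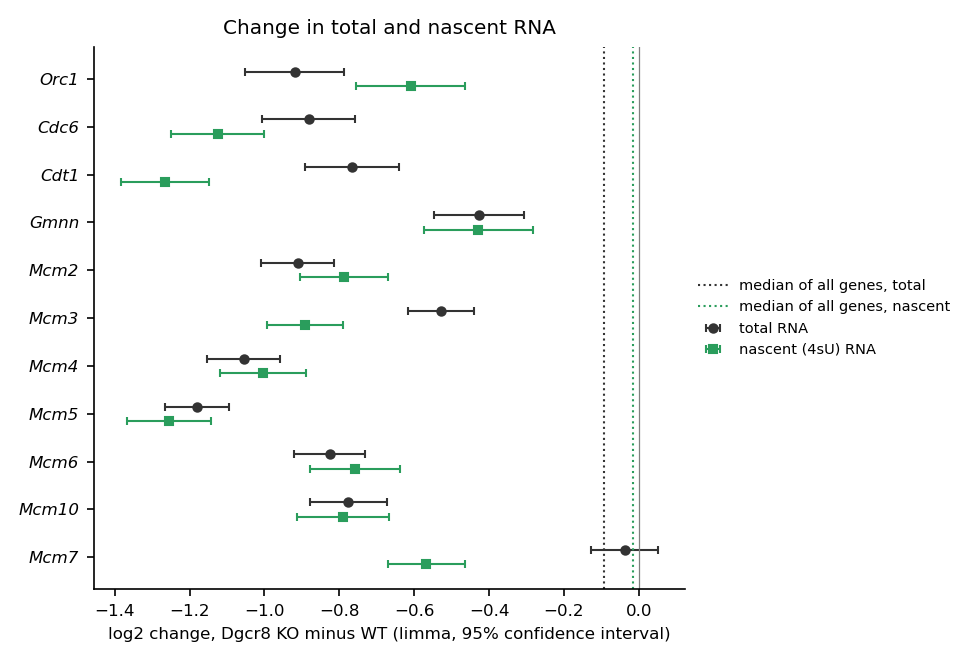
log2 change in Dgcr8 KO against wild-type in total (circles) and nascent RNA (squares) for the 10 licensing genes and Mcm7, with 95% confidence intervals from limma and the median of all genes as dotted lines. Gmnn lies closest to 0 among the 10 in both, and the total RNA interval of Mcm7 spans 0.

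Orc1 (chromosome 4, 108579454 to 108614833, plus strand) is the subunit of the origin recognition complex whose level changes through the cell cycle. Its total RNA was 165, 186 and 179.5 CPM in the 3 wild-type libraries and 94.1, 90.3 and 96.6 CPM in the 3 Dgcr8 KO libraries. In 4sU libraries it was 158, 138 and 169.5 CPM in wild-type and 100.2, 103 and 102 CPM in Dgcr8 KO. The groups did not overlap, and wild-type replicate 2 was at once the highest of its group in total and the lowest in 4sU RNA. The log2 change was -0.92 in total (SE 0.0648, limma adjusted p = 7.87e-14) and -0.61 in nascent RNA (SE 0.0713, limma adjusted p = 1.25e-08). The gene Gm12743 lies on the opposite strand, and reads were counted by strand.

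Of the other subunits of the complex, Orc6 had a log2 change of -0.68 in total RNA, Orc3 -0.55, Orc2 -0.53 and Orc4 -0.23, each past the test as lower. Orc5 did not pass in total RNA (0.01, limma adjusted p = 0.931) and was higher in nascent RNA (0.21, limma adjusted p = 0.0229), which did not pass with RLE factors (0.15, limma adjusted p = 0.0970). So Orc1 had the lowest of the 6 total RNA changes in the complex.

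The loaders Cdc6 and Cdt1 had the most nascent signal relative to total. Cdc6 (chromosome 11, 98907801 to 98923936, plus strand), an ATPase that joins the origin complex before the helicase arrives, had total levels of 119, 126 and 118 CPM in wild-type and 66, 64.9 and 65.7 CPM in Dgcr8 KO. Its 4sU levels were 196, 193 and 197 CPM in wild-type and 88.8, 93.3 and 86.6 CPM in Dgcr8 KO. The SD was at most 4.49 CPM in any group, and the genotypes did not overlap. The log2 change was -0.88 in total (SE 0.061, limma adjusted p = 4.87e-14) and -1.13 in nascent RNA (SE 0.0612, limma adjusted p = 3.36e-16).

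Cdt1 (chromosome 8, 122568015 to 122573128, plus strand) carries the MCM ring to the origin. It had total levels of 164, 169 and 171 CPM in wild-type and 99.0, 101 and 97.3 CPM in Dgcr8 KO. Its 4sU levels were 432, 386 and 414 CPM in wild-type and 185, 171 and 159 CPM in Dgcr8 KO. The lowest wild-type 4sU library was thus above every Dgcr8 KO library, and Cdt1 had the largest nascent decrease of the 10. The log2 change was -1.27 in nascent (SE 0.0578, limma adjusted p = 3.97e-18) and -0.77 in total RNA (SE 0.0617, limma adjusted p = 1.91e-12). Gm20388, annotated across Cdt1 on the same strand, shares 0 exon bases with it and had 0 counts.

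Gmnn (chromosome 13, 24751845 to 24761923, minus strand), the inhibitor of Cdt1, changed least. Its total levels were 116, 122 and 117 CPM in wild-type and 86.1, 90.8 and 86.9 CPM in Dgcr8 KO, and its 4sU levels were 88.0, 89.3 and 81.7 CPM in wild-type and 64.8, 63.0 and 64.3 CPM in Dgcr8 KO. The groups were apart in both. Both log2 changes were -0.43 (SE 0.0588 in total and 0.0719 in nascent RNA, limma adjusted p = 1.60e-07 and 7.07e-06).

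Because scaling between libraries cancels within a library, the ratio of Cdt1 to Gmnn reads was taken in each one. In total RNA the log2 ratio was 0.51, 0.47 and 0.55 in wild-type and 0.20, 0.15 and 0.16 in Dgcr8 KO. In 4sU RNA it was 2.30, 2.11 and 2.34 in wild-type and 1.51, 1.44 and 1.30 in Dgcr8 KO. The ratio was therefore lower in Dgcr8 KO in both library types, by a log2 difference of -0.34 in total and -0.83 in 4sU libraries (exact two-sided permutation p = 0.1 in each, the smallest that 3 against 3 can give). Neither can pass 0.05 in this design, although the groups did not overlap.

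The MCM subunits Mcm2 to Mcm6 form, with Mcm7, the ring that unwinds DNA. Mcm5 (chromosome 8, 75109569 to 75128439, plus strand) had the highest level in wild-type total RNA and the largest total decrease. It had 1119, 1108 and 1118 CPM in wild-type and 492, 502 and 481 CPM in Dgcr8 KO total libraries, and 415, 394 and 448 CPM against 174, 176 and 176 CPM in 4sU libraries. The log2 change was -1.18 in total (SE 0.0422, limma adjusted p = 3.60e-21) and -1.26 in nascent RNA (SE 0.0548, limma adjusted p = 1.32e-18). The genotypes were thus apart by many times the spread within groups.

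Mcm4 (chromosome 16, 15623897 to 15637400, minus strand) came next. It had 578, 588 and 608 CPM in wild-type and 278, 297 and 279 CPM in Dgcr8 KO total libraries, and 382, 380.0 and 406 against 202, 200.1 and 180.5 CPM in 4sU libraries. Its log2 changes of -1.06 in total and -1.003 in nascent RNA lay at the limit on size (95% confidence intervals -1.15 to -0.96 and -1.12 to -0.89), so this call is a matter of where the limit sits.

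Mcm2 (chromosome 6, 88883474 to 88898780, minus strand) had 739, 750.4 and 794 CPM in wild-type and 417, 384 and 414 CPM in Dgcr8 KO total libraries. Its 4sU levels were 405, 379 and 420.0 CPM in wild-type and 245, 237 and 217 CPM in Dgcr8 KO. The changes were -0.91 in total (SE 0.0483, limma adjusted p = 6.78e-17) and -0.79 in nascent RNA (SE 0.0578, limma adjusted p = 4.65e-13). The groups were apart in both library types.

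Mcm6 (chromosome 1, 128331590 to 128359664, minus strand) had 769.5, 769.5 and 755 CPM in wild-type and 452, 422 and 419 CPM in Dgcr8 KO total libraries. Its 4sU levels were 289.7, 280.5 and 324 CPM in wild-type and 175, 175 and 179 CPM in Dgcr8 KO. The changes were -0.83 in total (limma adjusted p = 2.40e-16) and -0.76 in nascent RNA (limma adjusted p = 1.70e-12). No library of either genotype reached into the range of the other.

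Mcm3 (chromosome 1, 20802968 to 20820312, minus strand) fell least of these 5 in total RNA. It had 734, 721 and 763 CPM in wild-type and 526, 500.5 and 510.2 CPM in Dgcr8 KO total libraries, and 548, 549.8 and 588 against 312, 295 and 302 CPM in 4sU libraries. The changes were -0.53 in total (SE 0.0431, limma adjusted p = 2.45e-12) and -0.89 in nascent RNA (SE 0.0497, limma adjusted p = 6.11e-16). The nascent groups were thus farther apart than the total groups.

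Mcm10 (chromosome 2, 4989714 to 5012791, minus strand), named with the family but not part of the ring, helps the helicase start at the onset of S phase. It had 301, 308 and 302 CPM in wild-type and 182, 177 and 173 CPM in Dgcr8 KO total libraries, and 204, 198 and 199.8 against 114, 124 and 110.4 CPM in 4sU libraries. The changes were -0.78 in total (SE 0.0501, limma adjusted p = 9.07e-15) and -0.79 in nascent RNA (SE 0.0597, limma adjusted p = 8.81e-13).

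Mcm7, the remaining ring subunit and not among the 10, changed little in total RNA. It had 531, 527 and 535 CPM in wild-type and 508, 523 and 522 CPM in Dgcr8 KO total libraries, and 446, 479 and 448 against 316, 318 and 291 CPM in 4sU libraries. Its nascent RNA was lower by -0.57 (SE 0.0502, limma adjusted p = 3.35e-11), while its total RNA did not pass (-0.04, 95% confidence interval -0.13 to 0.05, limma adjusted p = 0.471). With TMM factors every Dgcr8 KO library was below every wild-type library in both library types. The sign of this total change was positive under library size scaling alone (0.01), relative to the median change (0.06) and in a fit of total libraries alone (0.05). Per exon length, the log2 ratio of Mcm7 to the geometric mean of Mcm2 to Mcm6 was taken in each library. In total RNA it was -0.28, -0.29 and -0.31 in wild-type and 0.52, 0.60 and 0.60 in Dgcr8 KO libraries. In 4sU RNA it was above 0 in both genotypes, at 0.41, 0.56 and 0.32 in wild-type and 0.81, 0.84 and 0.75 in Dgcr8 KO. This ratio was chosen after the values were seen and was not tested. Mcm7 (chromosome 5, 138164583 to 138172422, minus strand) is the host gene of Mir106b, Mir93 and Mir25, whose hairpins lie within it on the same strand, and 2 of the mature miR-17 family sequences above come from there. Whether processing of these hairpins had a part in the Mcm7 values was not tested.

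Levels were compared between genes only per kb of exon. In wild-type total RNA they ran from 323 ± 1.73 CPM per kb for Mcm5 to 25.3 ± 0.939 CPM per kb for Cdc6 (SD, n = 3), a 12.8-fold range. The order in between was Mcm3 (244), Mcm2 (226), Mcm6 (175), Mcm4 (165), Gmnn (99.3), Cdt1 (76.8), Mcm10 (61.2) and Orc1 (58.7), and only Mcm10 and Orc1 overlapped as neighbours. The 5 ring subunits thus stood above the loaders. In Dgcr8 KO total RNA, Mcm3 (169 ± 4.27) moved above Mcm5 (142 ± 3.02), and the rest kept their order. In wild-type 4sU RNA, Cdt1 (188 ± 10.6) and Mcm3 (185 ± 7.47) led and overlapped, and Mcm10 (40.5 ± 0.648) and Cdc6 (40.8 ± 0.476) were last and overlapped. In Dgcr8 KO 4sU RNA the ends were Mcm3 (99.9 ± 2.73) and Cdc6 (18.7 ± 0.711).

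**Figure D3:**
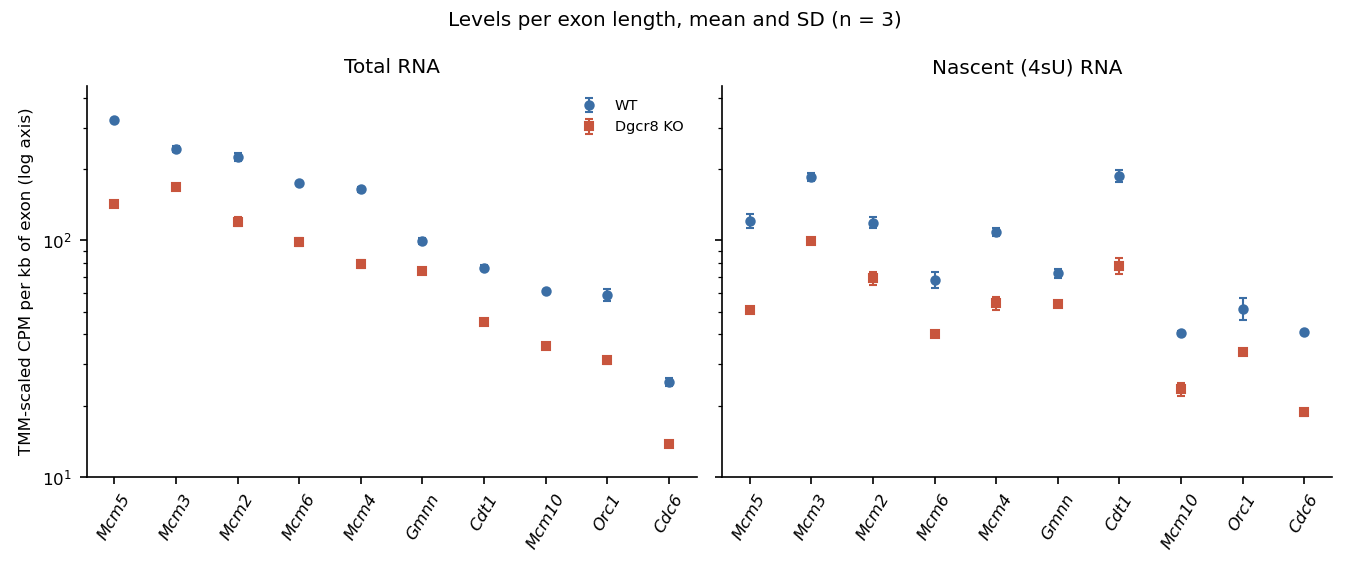
TMM-scaled CPM per kb of exon (log axis) of the 10 genes in wild-type (circles) and Dgcr8 KO (squares), as mean and SD of 3 libraries, in total and 4sU RNA and in the order of wild-type total RNA. Mcm5 leads in wild-type total RNA and Mcm3 in Dgcr8 KO, while Cdt1 stands at 188 CPM per kb in wild-type 4sU RNA against 76.8 in total RNA.

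The ratio of total to 4sU signal served as the measure of relative mRNA stability. In wild-type cells, as a log2 value relative to the median of tested genes, it was highest for Mcm5 (1.32 ± 0.082, SD, n = 3) and Mcm6 (1.27 ± 0.12), which had a higher ratio than 89.6% and 88.6% of tested genes. Mcm2 followed with 0.83 ± 0.047, and Mcm4 (0.51), Mcm10 (0.50), Gmnn (0.36), Mcm3 (0.31) and Orc1 (0.10) lay between. Cdc6 (-0.78 ± 0.057) and Cdt1 (-1.38 ± 0.090) lay below the median, with ratios above only 29.7% and 19.3% of tested genes. The 2 loaders were thus apart from the other 8 in every wild-type pair of libraries. The median of the 10 was 0.43, and 0.17 when the comparison was with genes at 3 CPM or more in all libraries. For Orc1 the 3 pairs gave -0.02, 0.32 and -0.00336, the second from the replicate with the highest total and the lowest 4sU level of its group.

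The question of whether the decrease was the same in total and nascent RNA was put to the interaction term, the change of this ratio in Dgcr8 KO. It passed as higher for Cdt1 (0.50, SE 0.0846, limma adjusted p = 6.94e-05) and Mcm3 (0.36, SE 0.0658, limma adjusted p = 0.000172), 2 of the 10, where 5.02% of all genes passed as higher. It passed as lower for Orc1 (-0.31, SE 0.0963, limma adjusted p = 0.0242), 1 of the 10, where 11.1% of all genes did. With RLE in place of TMM factors the split over all genes went from 704 higher and 1557 lower to 1049 higher and 960 lower, and the median of all genes from -0.09 to -0.00257. Cdt1 and Mcm3 passed as higher in all 17 alternatives, from 0.44 to 0.59 and from 0.35 to 0.45. Orc1 did not pass with RLE (-0.22, limma adjusted p = 0.124) nor without wild-type replicate 2 (-0.20, limma adjusted p = 0.159), Dgcr8 KO replicate 1 (-0.33, limma adjusted p = 0.0528) or Dgcr8 KO replicate 2 (-0.28, limma adjusted p = 0.113), and it lost the test in 8 of 17 alternatives.

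Cdc6 missed the threshold (0.24, SE 0.0864, limma adjusted p = 0.0510) and passed with the culture as a block across library types (0.24, limma adjusted p = 0.0402), with RLE factors (0.33, limma adjusted p = 0.00748) and without wild-type replicate 2 (0.28, limma adjusted p = 0.0421). It passed in 9 of 17 alternatives and missed in 8, among them edgeR (adjusted p = 0.0513) and the other 5 fits with a replicate left out (limma adjusted p from 0.0894 to 0.171). Mcm2 (-0.12), Mcm6 (-0.07), Mcm4 (-0.05), Gmnn (0.00201), Mcm10 (0.01) and Mcm5 (0.08) did not pass, and their 95% confidence intervals together spanned -0.28 to 0.22. None of the 10 had a log2 change over 1 in this ratio. In Dgcr8 KO the ratio relative to the median was -0.91, -0.76 and -0.69 for Cdt1, above the wild-type values of -1.47, -1.29 and -1.36 in every pair. For Mcm3 it was 0.74, 0.76 and 0.77, against 0.34, 0.28 and 0.29 in wild-type.

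Of the 4 members with the hexamer GCACTT printed above, Cdt1, Mcm3 and Cdc6 had the 3 highest changes in the ratio among the 10, and Mcm6 had -0.07. The 6 members without it ran from -0.31 to 0.08. This was seen once the values were known and was not tested. The UTRs searched ran from 224 bases (Gmnn) to 2731 bases (Cdc6), and their length was not taken into account. Mcm7 is no part of this comparison, because its 3′ UTR was not searched for these sites. Its change in the ratio (0.53, SE 0.0668, limma adjusted p = 7.80e-07) was above that of Cdt1 (0.50). The Mcm7 change passed in all 17 alternatives.

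**Figure D4:**
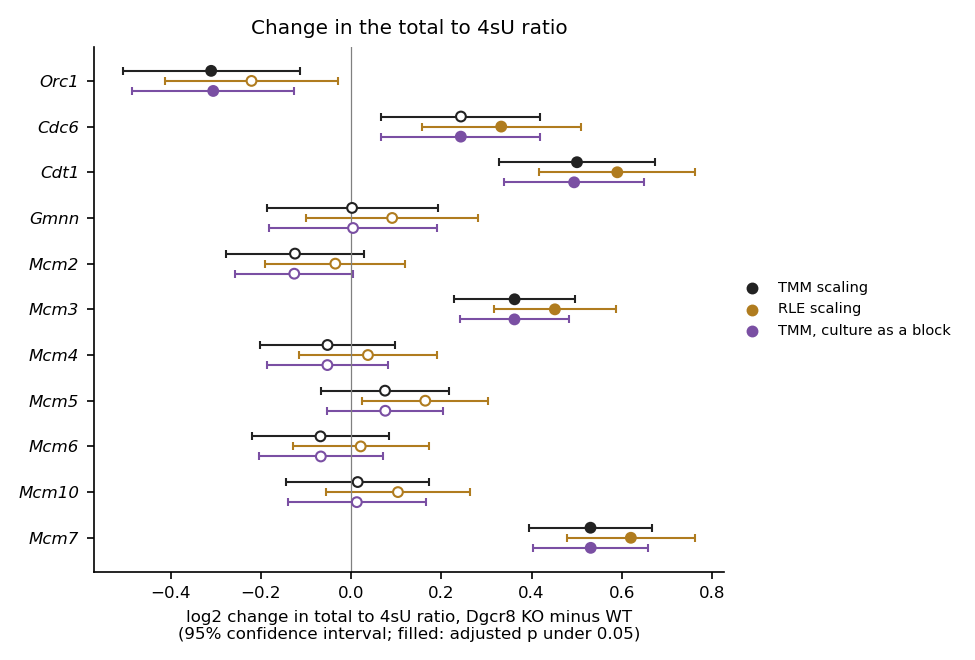
log2 change of the total to 4sU ratio in Dgcr8 KO against wild-type, with 95% confidence intervals, under TMM scaling, RLE scaling, and TMM with the culture as a block; filled symbols have an adjusted p under 0.05. Cdt1, Mcm3 and Mcm7 are filled and above 0 in all 3 fits, Cdc6 in 2, and Orc1 is below 0 and filled in 2.

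Genes that act around licensing were then counted from lists chosen with earlier results known. Over all genes, 36.7% passed as lower and 27.2% as higher in total RNA, and 28% as lower and 28.3% as higher in nascent RNA, and the list counts are to be read against these shares. The list for the pre-replicative complex held 9 genes (the other ORC subunits, Mcm7, Mcmbp and the related Mcm8 and Mcm9). In total RNA 6 of them passed as lower and 0 as higher, with a median of -0.23, and 3 did not pass. In nascent RNA 6 were lower and 1, Orc5, higher, and with RLE factors 6 were lower and 0 higher. Mcm8, a related helicase that acts in recombination, was lower by -0.62 in total and -0.58 in nascent RNA. Mcm9, its partner, did not pass in either (0.07 and -0.05).

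Of 12 genes for origin firing and assembly of the active helicase, 11 passed as lower and 1 as higher in total RNA (median -0.50), and 9 as lower in nascent RNA (median -0.36). Gins2 and Gins4, subunits of the GINS complex that joins the ring, changed by -1.43 and -0.83 in total and -1.31 and -0.96 in nascent RNA. Recql4, a helicase needed for firing, changed by -0.74 and -0.93. Mtbp, which helps recruit Cdc45, was the exception, higher by 0.34 in total RNA (limma adjusted p = 0.000156), with a ratio of total to 4sU higher by 0.42 (limma adjusted p = 0.0175).

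Of 7 genes that act in the turnover of licensing factors or restrain it, 6 passed as lower and 1 as higher in both total (median -0.43) and nascent RNA (median -0.53). Fbxo5 (Emi1), which restrains the anaphase-promoting complex and so protects Gmnn protein, changed by -1.11 in total and -1.03 in nascent RNA. Ccnf, a subunit of a ligase for Cdc6 and other factors, changed by -1.08 and -1.11, and Cul4b, a scaffold of the ligase that destroys Cdt1, by -0.74 and -0.53. Dtl, the receptor of that ligase for Cdt1, was lower by -0.62 in nascent and -0.15 in total RNA, with a ratio higher by 0.47 (limma adjusted p = 6.45e-05). Its total RNA did not pass with RLE factors (-0.11, limma adjusted p = 0.0851). Skp2, another receptor, was higher in total (0.41) and nascent RNA (0.29). Ddb1 had a ratio higher by 0.21 (limma adjusted p = 0.0268), which did not pass in edgeR (adjusted p = 0.0851).

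Of 23 replication fork genes, 17 passed as lower and 1 as higher in total RNA (median -0.31), and 13 as lower and 1 as higher in nascent RNA (median -0.26). Tipin, which stabilises the fork with Timeless, changed by -1.28 in total and -0.77 in nascent RNA. Rfc4, a clamp loader subunit, changed by -0.94 and -0.67, Rfc2 by -0.71 in total and Lig1, which seals Okazaki fragments, by -0.65 in nascent RNA. Pola1, the catalytic subunit of the priming polymerase, was higher by 0.55 in total and 0.22 in nascent RNA, and the nascent rise did not pass with RLE factors (0.16, limma adjusted p = 0.0854). The ratio was lower for Tipin (-0.51, limma adjusted p = 0.00102) and Rpa1 (-0.31, limma adjusted p = 0.00688), the latter not with RLE factors (-0.22, limma adjusted p = 0.0647), and higher for Pola1 (0.33, limma adjusted p = 0.0225).

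Of 7 genes listed under nucleotide supply, 4 passed as lower in total (median -0.56) and 5 in nascent RNA (median -0.56), with 0 higher. Rrm2, the regulated subunit of ribonucleotide reductase, changed by -1.50 in total and -1.64 in nascent RNA, while Rrm1, its partner, did not pass (0.00038 in total, limma adjusted p = 0.995). Dut, which removes dUTP, changed by -0.89 in total RNA, and Slbp, which binds histone mRNA, by -0.64 in nascent RNA. Dut also had a lower ratio (-0.33, limma adjusted p = 0.00417).

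**Figure D5:**
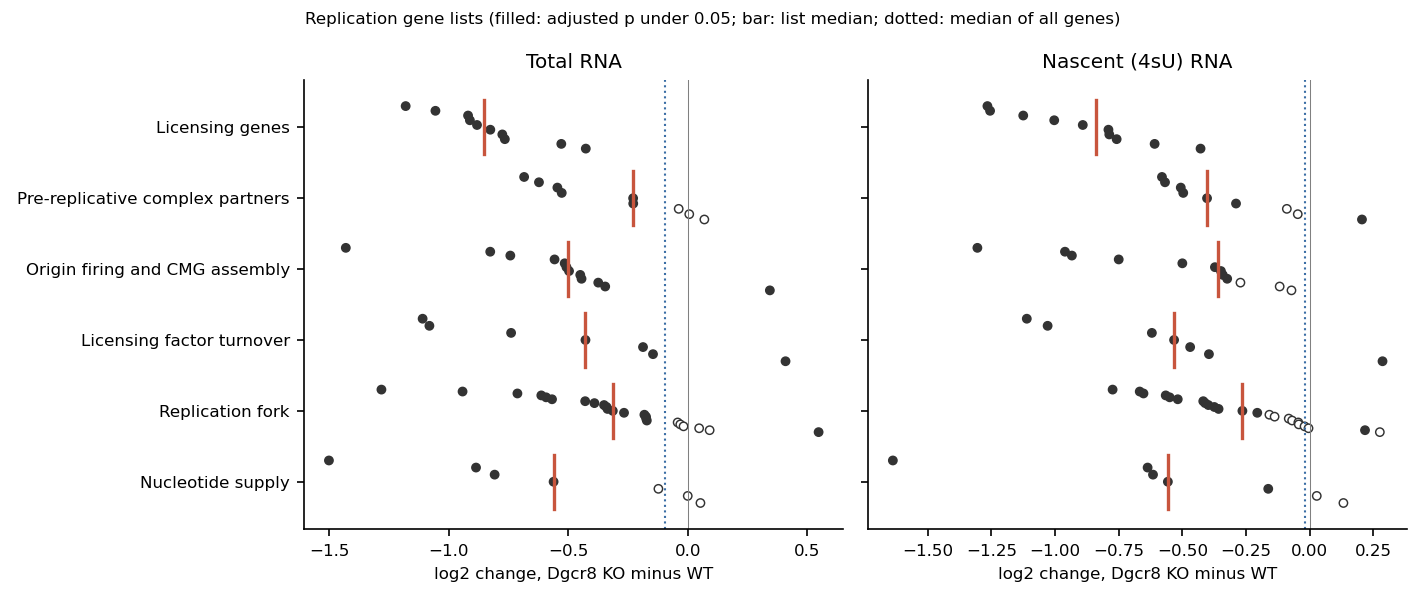
log2 change of each gene in Dgcr8 KO against wild-type, by list, in total and nascent RNA; filled points passed the test (adjusted p under 0.05), vertical bars are list medians and dotted lines the median of all genes. The licensing genes have the lowest list median in both panels, -0.85 and -0.84. Members and lists were chosen with earlier results of these data known, so this order is only a description. The only list with no unfilled point in both panels beside them is that of licensing factor turnover.

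The genes whose profiles over the 12 libraries, less the mean of each library type, were most like the mean of the 10 were Tars (Pearson's r 0.998), Gins4 (0.998), Rrm2 (0.997), Psat1 (0.997) and Hip1 (0.996). These r describe 12 libraries that share 2 genotypes and carry no test. The members themselves had r from 0.962 (Orc1) to 0.999 (Mcm5) with that mean, of which each is a part. Tars, a transfer RNA synthetase, changed by -1.17 in total and -1.25 in nascent RNA, Psat1, of serine synthesis, by -1.38 and -1.35, and Hip1 by -1.31 and -1.29.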

How the data were processed

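Counts were as the authors deposited them, in whole reads and without scaling. The authors trimmed reads with cutadapt 1.14, kept unique STAR 2.5.3a alignments to mm10, and counted exons by strand with featureCounts 1.5.3 on GENCODE M14. Exon lengths and coordinates came from the same table, and 51274 of its 51467 genes were named from GENCODE M21. ERCC rows (1 count in all) were left out. Groups and replicate numbers came from the sample titles. For the knockout libraries the source name reads DDX8KO, against DGCR8 KO in title and genotype, and the latter was used.

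Genes at 3 CPM or more in at least 3 libraries were kept. After TMM scaling in edgeR 4.0.16, voom and limma 3.58.1 (R 4.3.3) estimated the effects of RNA type and genotype, and the interaction of both, from all 12 libraries, as the study did. The interaction is the change in the ratio of total to 4sU RNA. Passing meant a Benjamini-Hochberg adjusted p under 0.05. For ratios per library, 0.5 CPM was added to both values. Replicates of every group differed by more than sampling noise (chi-square per degree of freedom 1.54 to 5.10). The excess was largest among wild-type 4sU libraries (3.43 to 5.10), while the fit shared an estimate of the spread over the 4 groups.

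Alternatives were edgeR's quasi-likelihood test, DESeq2 1.42.0, limma-trend, other scalings and filters, blocks, a single library type, and each replicate left out. The protocol splits each labelled RNA sample, so 4sU and total libraries with the same number are paired. Their deviations from group means correlated at 0.0181 to 0.116, and 12 of 12 libraries were best matched by their own number. The main fit did not use this pairing, and the culture block did. Scripts were tested on simulated data. Named genes were the 10 members, Dgcr8, Mcm7, at most the 3 largest changes past the test per list and contrast, and the 5 nearest profiles; 1 gene this rule named is not reported here. Orc2, Orc5, Mcm9, Rrm1 and Skp2 were added after their values were seen. Members and lists were chosen with earlier results of these data known.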

Additional observations from a re-analysis of the deposited data

Results flagged for a closer look

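For 3 of the 10 genes the change in Dgcr8 KO differed between total and nascent RNA by the interaction test, 2 as higher, where 5.02% of all genes passed in that direction, and 1 as lower, where 11.1% did. Cdt1 fell less in total RNA (-0.77) than in nascent RNA (-1.27), a log2 difference of 0.50 (limma adjusted p = 6.94e-05). Mcm3 fell less in total RNA (-0.53) than in nascent RNA (-0.89), a difference of 0.36 (limma adjusted p = 0.000172). Orc1 went the opposite way, lower by -0.92 in total and -0.61 in nascent RNA, a difference of -0.31 (limma adjusted p = 0.0242), over a range of adjusted p from 0.00926 to 0.174 in its 17 alternatives. Groups of 3 were too small to be searched for single libraries that stand apart.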

How the results depend on the processing

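All 10 genes passed as lower in total and in nascent RNA in every alternative run except the limit on size, which left 2 in total RNA, 4 in nascent RNA and 0 for the ratio of total to 4sU. Otherwise 2 to 4 members passed for the ratio, and the median ratio change of the 10, 0.00825 with TMM, was 0.10 with RLE. The median total change of the 10, -0.854 in the main fit, was -0.761 relative to the median change and -0.765 from total libraries alone. With the replicate number as a block 10 passed as lower in total RNA, 10 in nascent RNA and 4 for the ratio. With the culture as a block 4 passed for the ratio, and the call of Cdc6 was the one that changed. Over all 14033 genes the ratio passed as higher for 704 and as lower for 1557 in the main fit. These were 826 and 1801 with the number as a block, and 902 and 1984 with the culture. With the number as a block 5196 genes passed as lower in total RNA and 4069 in nascent RNA. Same-numbered libraries of the 2 genotypes did not deviate together (correlations of -0.0898 to 0.0822, with 5 of 12 libraries best matched by their own number). The median wild-type ratio of the members moved to 0.52 with no filter beyond 1 count and to 0.17 with 3 CPM in all libraries, by construction, since the median subtracted is then that of other genes.

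Signs turned where values lay near 0, none past the test. Mcm4 stability was 0.036 with DESeq2, 0.037 with RLE, 0.014 with upper-quartile scaling and 0.039 relative to the median change, and Mcm6 stability 0.023, 0.021 and 0.024 with DESeq2, RLE and relative to the median change. With a replicate left out, Mcm10 stability ran from -0.024 to 0.056 and Gmnn stability from -0.042 to 0.029. With RLE, Fbxo5 stability was 0.00946, Mcm8 stability 0.046, Orc3 stability 0.040, Psat1 stability 0.062, Hip1 stability 0.067, Rrm1 nascent RNA -0.029 and Rrm1 stability 0.062. Mcm7 total RNA was 0.015 by library size alone, 0.056 relative to the median change and 0.051 from total libraries alone. RLE also ended the call of Orc6 stability (-0.19, limma adjusted p = 0.172) and brought Orc4 stability past it (0.37, limma adjusted p = 0.0295). The cause was not tested. Settings for Mcm7, Dgcr8, Orc2, Orc5, Mcm9, Rrm1, Skp2 and the nearest profiles were added after seeing the data.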
